A study of Saccharomyces cerevisiae with 6 samples.

Results

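The genes of the proteasome, with its transcription factor RPN4 and its assembly factor UMP1, were compared between CX01F, a *Saccharomyces cerevisiae* strain evolved for growth on methanol, and CX01, its parent. The set was chosen by gene name. It holds 14 subunits of the core particle, 19 of the regulatory particle and the 2 regulators, in all 35 of the 6400 named genes of the count table, and every one of the 35 had a row and passed the filter on low counts. RNA was sequenced from 3 libraries of CX01F and 3 of CX01, which the labels call biological replicates. Cultures of both strains passed from an overnight in rich YPD medium to 16 h in Delft, a minimal medium of defined composition, and last to Delft without glucose and with 1% methanol as the carbon source. The shake flasks stood at 30 °C and 200 rpm, and cells were taken at an OD600 near 1.0.

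The 2 strains carry the same genotype label. It names P. Paox1-SKL and P. Pdas1-skl beside P. pDAK, then B. mMDH3-skl with B. mACT1-skl, then P. pPYC, and P. sXR followed by P. sXDH and P. sXK. It also names PEX5, the deletions ∆PEX31 and ∆PEX32, and S.c MDH2 with S. cMDH3 and S. Cnde1. The mutations that CX01F gained during its evolution are not given in the sources used here, and CX01F is 1 evolved strain. The comparison asks how the cells rearranged their metabolism in adapting to methanol. The labels give no batch, and any difference in handling between the CX01F and CX01 cultures cannot be told apart from strain.

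The proteasome is the protease that degrades ubiquitin-tagged proteins in the cytosol and nucleus. Its barrel-shaped core particle has outer rings of alpha subunits, which gate the entry, and inner rings of beta subunits, of which Pre3, Pup1 and Pre2 hold the active sites. The regulatory particle that caps it has a base, with a ring of 6 ATPases (Rpt1 to Rpt6) that unfolds substrates, and a lid, which removes ubiquitin. Rpn4 is a short-lived activator that switches on most proteasome genes through a promoter element of 9 bases, GGTGGCAAA, and is itself degraded by the proteasome.

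That element was searched for on both strands in the 300 bases before the start codon of each gene in the RefSeq R64 genome. These windows can reach into a neighbouring gene. The letters GGTGGCAAA stood before 27 of the 35 genes (77.1%), against 73 of all 6001 coding genes (1.22%). They were found before 12 of 14 core particle genes and 15 of 19 regulatory particle genes, and before neither RPN4 nor UMP1. Each of the 27 had 1 match, 19 on the strand of the gene and 8 on the other. The first base lay 84 to 183 bases before the start codon, with a median of 120. A match is a description of the sequence and does not show that Rpn4 binds there.

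**Figure D1:**
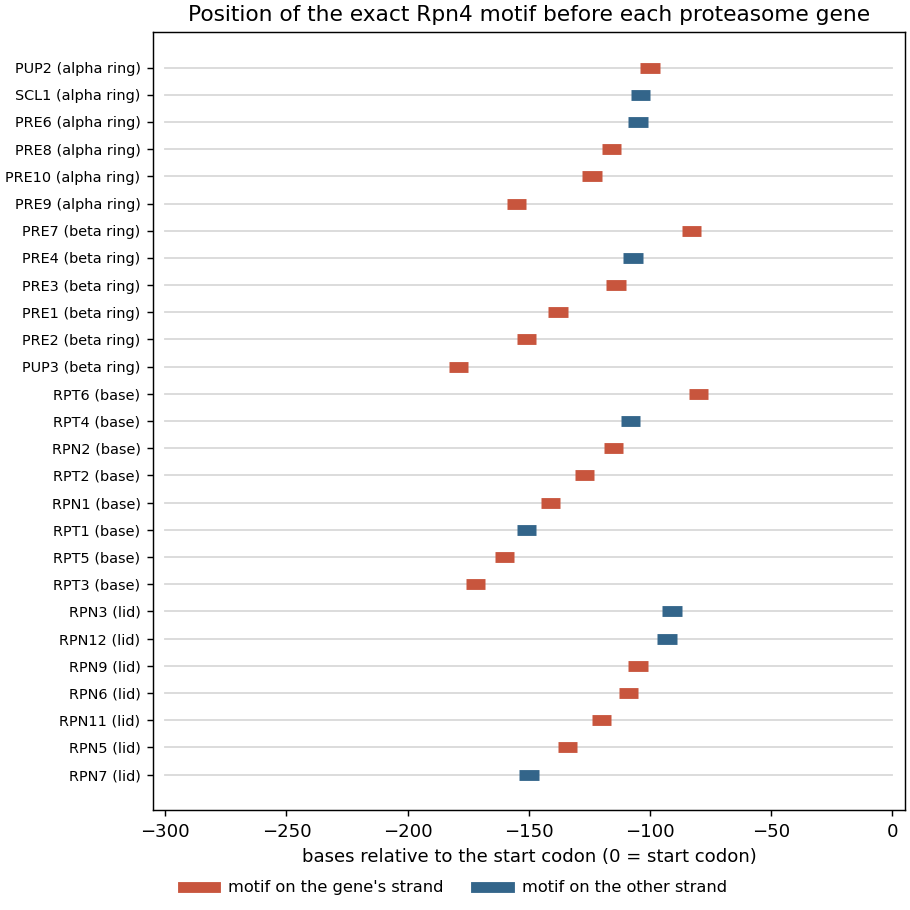
Position of the exact 9-base Rpn4 element (coloured blocks) in the 300 bases before the start codon of the 27 genes that hold it, in bases from the start codon. Red blocks are on the strand of the gene and blue blocks on the other strand. All blocks lie between 183 and 76 bases before the start codon.

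The stretches below belong to genes with large falls, to the subunit genes called higher in CX01F, and to the subunit genes without the exact element. The element is in capitals, each stretch is read 5′ to 3′ in the direction of the element, and coordinates and strand are of R64. The first 6 stand before the genes with the largest falls among those that hold the exact element.
RPT1, chrXI:174048-174076, minus strand: ttagttttcgGGTGGCAAAattcggtaat
RPT4, chrXV:813802-813830, plus strand: ctttcccttcGGTGGCAAAttccactatt
PRE10, chrXV:1018856-1018884, minus strand: cctctaaatcGGTGGCAAAaataagaaag
PRE6, chrXV:255218-255246, minus strand: tttcccttccGGTGGCAAAagaatcttcg
RPT5, chrXV:544855-544883, plus strand: gccaatatgtGGTGGCAAAaatgaattaa
RPN3, chrV:196843-196871, minus strand: ctctttcttgGGTGGCAAAtgtttttcgt

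The next 5 stand before the 5 subunit genes that were higher in CX01F. The capitals are the same in both sets.
PRE9, chrVII:761223-761251, plus strand: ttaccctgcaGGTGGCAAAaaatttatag
RPN12, chrVI:252398-252426, minus strand: aatttcaatgGGTGGCAAAtaatgtgtag
PRE7, chrII:141150-141178, plus strand: aaactcaaagGGTGGCAAAaacaagcggt
RPN7, chrXVI:742290-742318, minus strand: atcctcaatgGGTGGCAAActtaacttat
RPN9, chrIV:1322086-1322114, plus strand: gctttcatccGGTGGCAAAagtaagaaca

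The remaining 6 subunit genes each held 1 stretch that differs from the element at a single base, shown in capitals. Counted from 1 at the 5′ end of the element, PRE5, PUP1 and RPN8 carry G1A, and RPN10, RPN13 and SEM1 carry A7G. The letters AGTGGCAAA are found in 0.85% of all windows and GGTGGCGAA in 0.433%. A stretch with any 1 mismatch is found in 6.58% of all windows.
PRE5, chrXIII:901552-901580, plus strand: cctattatagAGTGGCAAAattaaaaatt
PUP1, chrXV:631891-631919, minus strand: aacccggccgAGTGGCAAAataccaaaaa
RPN8, chrXV:817085-817113, minus strand: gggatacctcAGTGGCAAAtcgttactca
RPN10, chrVIII:498968-498996, minus strand: tgtaaattccGGTGGCGAAaacccgcctg
RPN13, chrXII:965656-965684, minus strand: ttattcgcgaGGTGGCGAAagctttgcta
SEM1, chrIV:1202007-1202035, plus strand: tagtgctatgGGTGGCGAAcgtggtgggc

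Library totals ran from 51537969 to 63183824 counts, and a single proteasome gene had 6086 to 85738 counts in a library, so none of the values below is near the counting floor. The coefficient of variation (CV) of a gene over the 3 libraries of a strain was at most 3.26% in CX01F and 4.15% in CX01. Levels are in CPM, counts per 1000000 counts of a library, on library sizes scaled by the trimmed mean of M-values (TMM). Log2 fold changes are CX01F minus CX01, and a gene was called at an adjusted p under 0.05 in edgeR's quasi-likelihood test over all 6129 tested genes. PEX31, labelled as deleted in both strains, had 1, 0 and 1 counts in the CX01F libraries and 0 in each CX01 library, while PEX32, labelled likewise, had 167 to 230 counts in CX01F and 219 to 279 in CX01.

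Most proteasome genes were lower in CX01F, by modest amounts. Of the 35, 27 were called lower (77.1%) and 5 higher (14.3%), where 45.9% of all tested genes were called lower and 45.5% higher. The share called in either direction was 91.4% among the 35 and 91.4% among all tested genes. Only 5 of the 35 changed by at least 2-fold, all lower (14.3%), and 14.6% of all tested genes were that much lower. With scaling by library size only, 8 were at least 2-fold lower and 2 were called higher, and without the genes of chromosomes XI and XV these counts were 1 (RPN4) and 3. The median log2 change of the 35 was -0.30, against -0.0020 over all tested genes. In RNA from whole cultures, fewer cells that express a gene and less of its RNA per cell cannot be told apart. For 31 genes the libraries of the strains did not overlap, 26 lower and 5 higher in CX01F, which holds for 91.9% of tested genes. Subunit genes together took 1.17% to 1.19% of the counts in the CX01F libraries and 1.86% to 1.88% in the CX01 libraries. These shares are of library totals without TMM, a scaling under which log2 changes shifted by a median of -0.21. They include the 7 subunit genes on XI and XV.

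**Figure D2:**
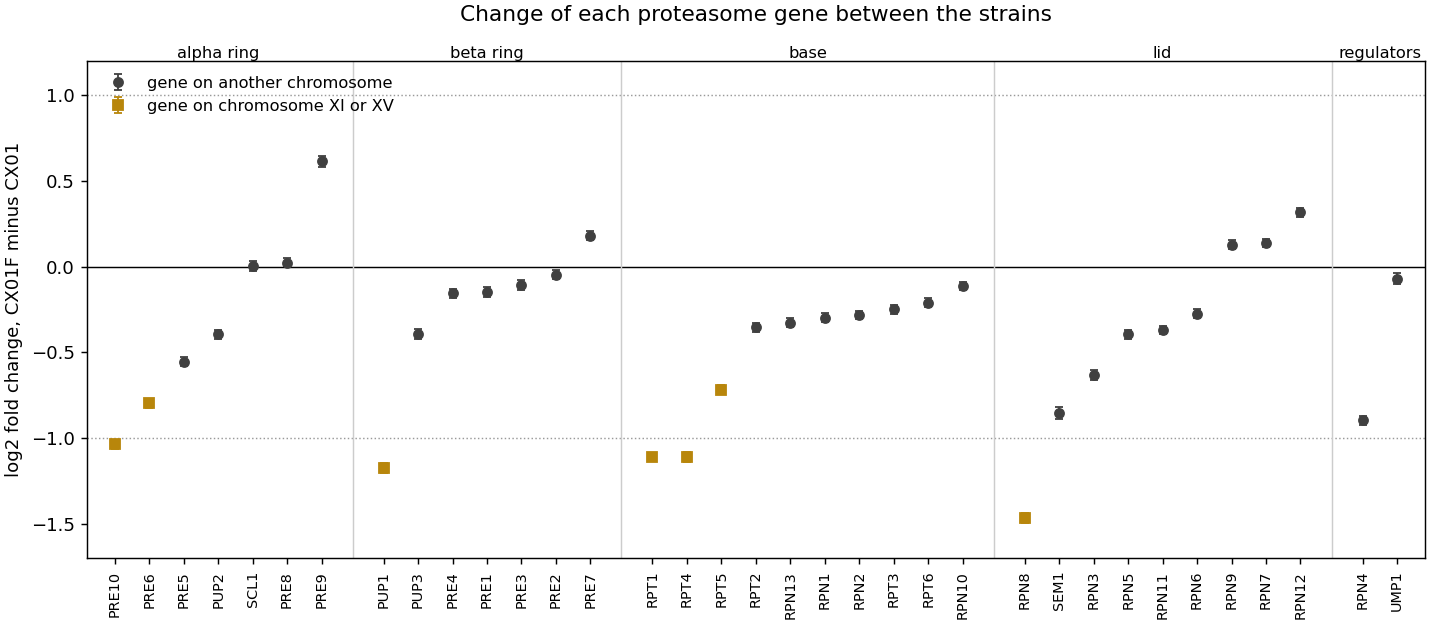
Log2 fold change of each of the 35 genes, CX01F minus CX01, with its standard error (bars), by part of the proteasome. Squares are genes on chromosomes XI and XV, the dotted lines mark 2-fold, and the 5 genes beyond the lower dotted line are all squares.

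The 2 particles were then set against each other. Of the 19 regulatory particle genes, 16 were lower and 3 higher (84.2% lower), with a median log2 change of -0.33. Of the 14 core particle genes, 9 were lower, 2 higher and 3 not called (64.3% lower), with a median of -0.15. The medians differed by 0.18, core above regulatory, a difference that a change of scaling shared by all genes cannot move. The medians themselves moved, to -0.36 (core) and -0.53 (regulatory) with library size only, where 12 core genes and 18 regulatory genes were lower, and to -0.26 and -0.44 when genes off XI and XV set the scaling. By part, with TMM, the medians were -0.39 (alpha ring), -0.15 (beta ring), -0.31 (base) and -0.37 (lid), so the alpha ring did not lie above the base or the lid. Off XI and XV they were 0.01, -0.13, -0.28 and -0.32. No test is given for the difference between the particles, since the genes were chosen with results of these data known.

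All 10 genes of the base were lower in CX01F. The 6 ATPases had log2 changes from -1.11 to -0.21 and the 4 other base subunits from -0.33 to -0.11. RPT1, an ATPase on chromosome XI, changed most, at 586, 574 and 591 CPM in the CX01F libraries against 1260, 1251 and 1267 CPM in the CX01 libraries. The strains were far apart at this gene and the libraries of a strain close together (log2 -1.11, SE 0.0257, adjusted p = 9.78e-15). RPT4, an ATPase on XV, was 2.16-fold lower as well, at 436 ± 5.57 CPM in CX01F against 941 ± 19.8 CPM in CX01 (SD, n = 3 each). RPT5, the third ATPase on these chromosomes, was at -0.72.

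The other 3 ATPases fell less, RPT2 by 0.35, RPT3 by 0.25 and RPT6 by 0.21 on the log2 scale. RPN1 and RPN2, the large scaffold subunits of the base, were at -0.30 and -0.28. RPN13, a receptor for ubiquitin chains, was at -0.33. RPN10, the other dedicated ubiquitin receptor, changed least in the base, at 219.6, 219.7 and 222 CPM in CX01F against 239.7, 236 and 238.5 CPM in CX01. Even here every CX01F library lay below every CX01 library (log2 -0.11, SE 0.024, adjusted p = 0.000578).

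The lid held the largest fall and 3 rises. RPN8, which pairs with the deubiquitinase Rpn11, had 397, 377 and 392.5 CPM in the CX01F libraries against 1076, 1056 and 1092 CPM in the CX01 libraries. It was the most changed of the 35 genes, 2.76-fold lower (log2 -1.47, SE 0.0286, adjusted p = 1.46e-15), and lies on XV. Per kilobase of coding sequence RPN8 had the highest level of all 35 in CX01, 1057 ± 17.5 CPM per kb, and was 16th in CX01F, at 382 ± 10.1 CPM per kb. RPN11, the lid enzyme that cuts ubiquitin off the substrate, changed much less, at 325.5 ± 4.94 CPM in CX01F against 420.3 ± 2.13 CPM in CX01 (log2 -0.37).

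SEM1, the smallest lid subunit, was at 127, 124 and 132 CPM in CX01F against 229.7, 223 and 239 CPM in CX01, 1.81-fold lower (log2 -0.85, SE 0.0324, adjusted p = 2.94e-12). It is on chromosome IV, and its fall was the largest among subunit genes off XI and XV. The scaffold subunits RPN3, RPN5 and RPN6 were at -0.63, -0.39 and -0.27. The other lid scaffold subunits were higher in CX01F. RPN12 was at 225, 219.8 and 219.6 CPM in CX01F against 177, 173 and 182.5 CPM in CX01 (log2 0.32, SE 0.0271, adjusted p = 3.98e-08). RPN7 and RPN9 rose by 0.14 and 0.13 on the log2 scale. With scaling by library size only, these became -0.07 and -0.08, so their direction rests on the scaling, while RPN12 stayed higher.

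The alpha ring went both ways. PRE10 was called 2.05-fold lower, with 389, 379 and 382 CPM in CX01F against 797, 764 and 795 CPM in CX01 (log2 -1.04, SE 0.0272, adjusted p = 4.04e-14). PRE6 was at log2 -0.80, and both genes are on XV. PRE5 and PUP2, on other chromosomes, were at -0.55 and -0.39. PRE9, the only core particle subunit that yeast can live without, was the largest rise of the 35 genes. It had 321, 305.5 and 319 CPM in the CX01F libraries and 214, 201 and 203 CPM in the CX01 libraries, 1.53-fold higher (log2 0.61, SE 0.0307, adjusted p = 7.38e-11). In cells that lack Pre9 a second copy of Pre6 takes its place, but neither strain is labelled as lacking PRE9. PRE9 was higher and PRE6 lower in CX01F, where PRE6 stood 0.07 above the median log2 change of XV. Per kilobase PRE9 and PRE6 stood at 406 ± 10.8 and 394 ± 8.63 CPM per kb in CX01F, against 265 ± 8.86 and 685 ± 7.41 CPM per kb in CX01. Which subunits the particles held was not measured.

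The alpha subunits SCL1 and PRE8 did not pass the test. SCL1 had 341, 338 and 343 CPM in CX01F against 326, 350.3 and 339.9 CPM in CX01, where the CX01 libraries enclose all those of CX01F (log2 0.01, SE 0.0289, adjusted p = 0.82). PRE8 was at 253 ± 4.42 CPM in CX01F against 249 ± 5.10 CPM in CX01 (log2 0.02). Both turned negative with library size only, at -0.20 and -0.18, and when the scaling was taken from genes off chromosomes XI and XV, at -0.11 and -0.09, where both were called lower (edgeR adjusted p = 0.00317 and 0.00494). For SCL1 the sign also turned without CX01 replicate 1 (log2 -0.02, not called).

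In the beta ring the 3 catalytic subunits had unlike changes. PUP1, which holds the trypsin-like site and lies on XV, had 225.4 CPM in each CX01F library against 492, 511 and 525 CPM in the CX01 libraries, 2.26-fold lower (log2 -1.18, SE 0.0283, adjusted p = 1.52e-14). PRE3, with the caspase-like site, was at 284 ± 5.17 CPM in CX01F against 306 ± 8.32 CPM in CX01 (log2 -0.11). PRE2, with the chymotrypsin-like site, had 440.1, 426 and 451 CPM in CX01F against 455, 446 and 459 CPM in CX01. Its libraries overlap between the strains and it was not called (log2 -0.05, SE 0.0277, adjusted p = 0.124), but it was called lower with library size only (log2 -0.25) and when genes off XI and XV set the scaling (log2 -0.16). Of the non-catalytic subunits, PUP3, PRE4 and PRE1 were lower, at -0.39, -0.15 and -0.15. PRE7 was higher at 0.18, and at -0.03 with library size only.

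The 2 regulators differed in size of change. RPN4 had 692, 683 and 695 CPM in the CX01F libraries against 1276, 1261 and 1317 CPM in the CX01 libraries. The CX01F libraries all lay well below those of CX01, 1.86-fold (log2 -0.90, SE 0.027, adjusted p = 1.93e-13). RPN4 is on chromosome IV, whose coding genes had a median log2 change of 0.02. UMP1, a chaperone of core particle assembly that the finished particle degrades, had 154.6, 152.4 and 156.6 CPM in CX01F against 160, 156.5 and 169.6 CPM in CX01. Its call was marginal (log2 -0.07, SE 0.031, adjusted p = 0.0492), its libraries overlap between the strains, and 9 alternatives moved the adjusted p above the threshold, 0.0507 to 0.213, among them leaving out any 1 CX01F library or CX01 replicate 1 or 3.

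**Figure D3:**
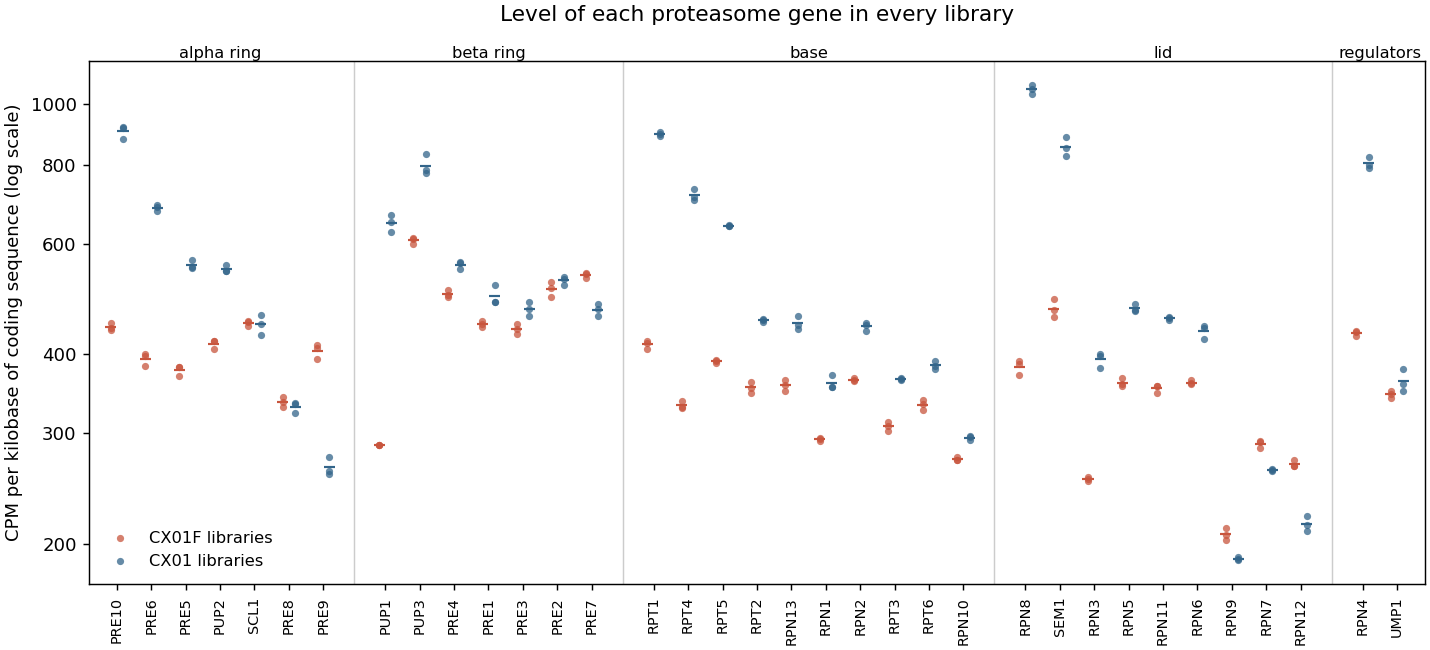
Level of each gene as CPM per kilobase of coding sequence (log scale) in the 3 CX01F libraries (red) and the 3 CX01 libraries (blue), by part of the proteasome. Points are libraries and short bars are means. RPN8 is highest in CX01 and RPN9 is lowest in both strains.

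A complete particle holds its subunits in equal numbers, so their levels were also set side by side per kilobase of coding sequence. Uses of a subunit outside the particle were not examined. All 33 subunit genes were above the level of the median coding gene in every library. Among subunits, PUP3 was highest in CX01F, at 608 ± 7.0 CPM per kb, and RPN8 in CX01. RPN9 was lowest in both, at 207 ± 4.78 CPM per kb in CX01F and 189.5 ± 1.24 CPM per kb in CX01. The highest subunit of the regulatory particle was 2.22 to 2.37 times the lowest in the CX01F libraries and 5.52 to 5.63 times in the CX01 libraries. In the core particle this ratio was 2.09 to 2.14 in CX01F and 3.34 to 3.51 in CX01. Within the beta ring alone the order was the other way, at 2.09 to 2.14 in CX01F and 1.66 to 1.81 in CX01. The lowest of this ring in CX01F was PUP1, on XV.

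By the CV over subunits, the levels were more even in CX01F in the alpha ring, the base and the lid, and not in the beta ring. In the alpha ring the CV over the 7 subunits was 9.1% to 10% in the CX01F libraries and 39.5% to 41.6% in the CX01 libraries. In the base it was 12.6% to 13.0% in CX01F and 37.7% to 38.7% in CX01, and in the lid 24.1% to 25.6% in CX01F and 60.0% to 61.4% in CX01. In the beta ring it was 20.9% to 21.4% in CX01F and 20.2% to 22.5% in CX01, while the SD of log2 levels there was larger in CX01F, 0.338 to 0.351 against 0.268 to 0.297 in CX01. PUP1, on XV, was the lowest of the ring in CX01F, at 287 ± 0.0172 CPM per kb, and 648 ± 20.8 CPM per kb in CX01. Its SD in CX01F is below what counting noise alone would give, so it does not measure precision. The other 6 beta ring genes ran from 439 to 608 CPM per kb in CX01F and from 471.5 to 798 CPM per kb in CX01. The 3 base genes on XI and XV, RPT1, RPT4 and RPT5, were at 897, 716.5 and 641 CPM per kb in CX01. In CX01F they were at 416, 332 and 390 CPM per kb. The other 7 base genes ran from 295 to 453 CPM per kb in CX01 and from 273 to 365 CPM per kb in CX01F. A CV without XI and XV was not computed for the base or the beta ring alone. Among subunit genes RPN8, PRE10, RPT1 and SEM1 were highest in CX01, and all were lower in CX01F. RPN8, PRE10 and RPT1 are on XI or XV, where falls were common to most genes. The lowest in CX01 were RPN9, RPN12, RPN7, PRE9 and RPN10. All of these but RPN10 were called higher in CX01F, RPN7 and RPN9 not under every scaling. The CX01 level enters each change, so falls of high genes and rises of low ones are favoured in advance.

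**Figure D4:**
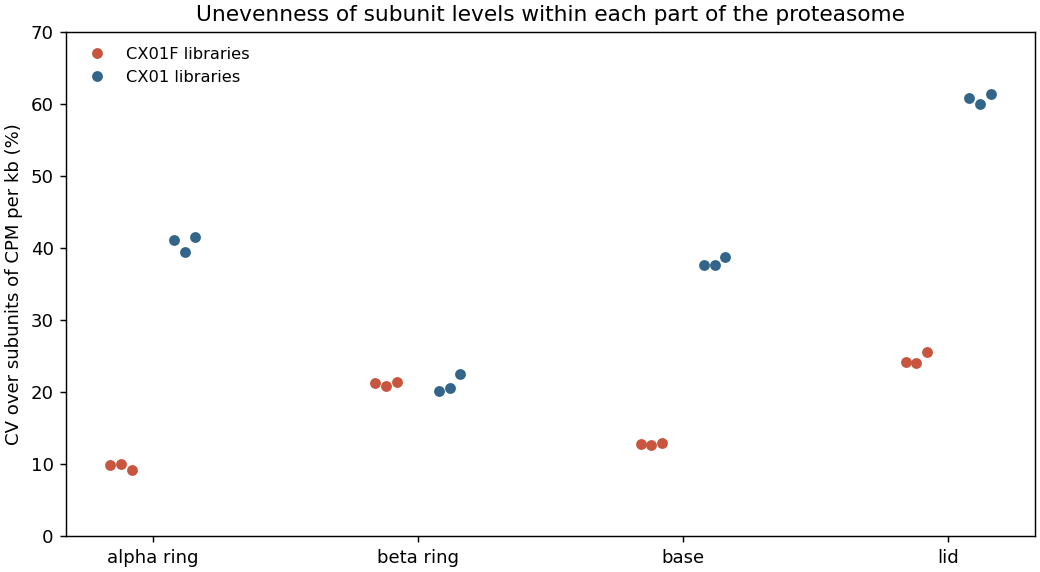
Coefficient of variation over subunits of the level in CPM per kilobase of coding sequence, in percent, for each part of the proteasome in the 3 CX01F libraries (red) and the 3 CX01 libraries (blue). Each point is a library. The CX01F points are below those of CX01 in the alpha ring, base and lid, and the strains overlap in the beta ring.

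Over all coding genes the levels were not more even in CX01F. The interquartile range of log2 CPM per kb over tested coding genes was 2.03 to 2.05 in CX01F and 1.98 to 1.99 in CX01, while over the 33 subunits it was 0.397 to 0.416 in CX01F and 0.679 to 0.762 in CX01. Without the genes of chromosomes XI and XV the CV of the regulatory particle was 19.2% to 20.4% in CX01F and 37.5% to 39.8% in CX01. That of the core particle was then 16.7% to 17.1% in CX01F and 26.6% to 29.2% in CX01. The mean level per kb of core subunits over that of regulatory subunits was 1.30 to 1.31 in CX01F and 1.12 in each CX01 library. The ratio of the medians differed less, 1.245 to 1.253 in CX01F and 1.191 to 1.232 in CX01. These ratios carry no test, and how evenly reads cover each gene was not examined.

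Chromosome position moved with the size of the falls. Coding genes on XI and XV had median log2 changes of -0.82 and -0.86, against 0.02 to 0.26 on each other nuclear chromosome, and 7 of the 35 proteasome genes are on them. All 7 were lower, from -1.47 (RPN8) to -0.72 (RPT5), with a median of -1.11. With TMM all 5 genes with a change of at least 2-fold are among them. When genes off XI and XV set the scaling, RPN4, on IV, was also beyond 2-fold (log2 -1.01). With library size only, RPN4 (-1.10) and SEM1 (-1.06), both on IV, were too. Of all coding genes on XI and XV, 79.6% were called lower and 41.6% were lower by at least 2-fold, so falls there were common to most genes. Set against the median of its own chromosome, RPN8 was at -0.60, PUP1 at -0.31, RPT1 at -0.29, RPT4 at -0.25 and PRE10 at -0.17, while PRE6 and RPT5 were at 0.07 and 0.15. The part of chromosome position in these falls was not tested.

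The 28 genes on other chromosomes were also mostly lower. Of these, 20 were lower, 5 higher and 3 not called, and the median was -0.23. Of all coding genes off XI and XV, 39.3% were called lower and 51.8% higher, with a median of 0.12. The regulatory particle kept 12 lower and 3 higher of 15 (median -0.28) and the core particle 6 lower and 2 higher of 11 (median -0.11). Relative to its chromosome median, RPN4 was at -0.91, SEM1 at -0.87 and RPN3 at -0.81, which is further below than RPN8.

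**Figure D5:**
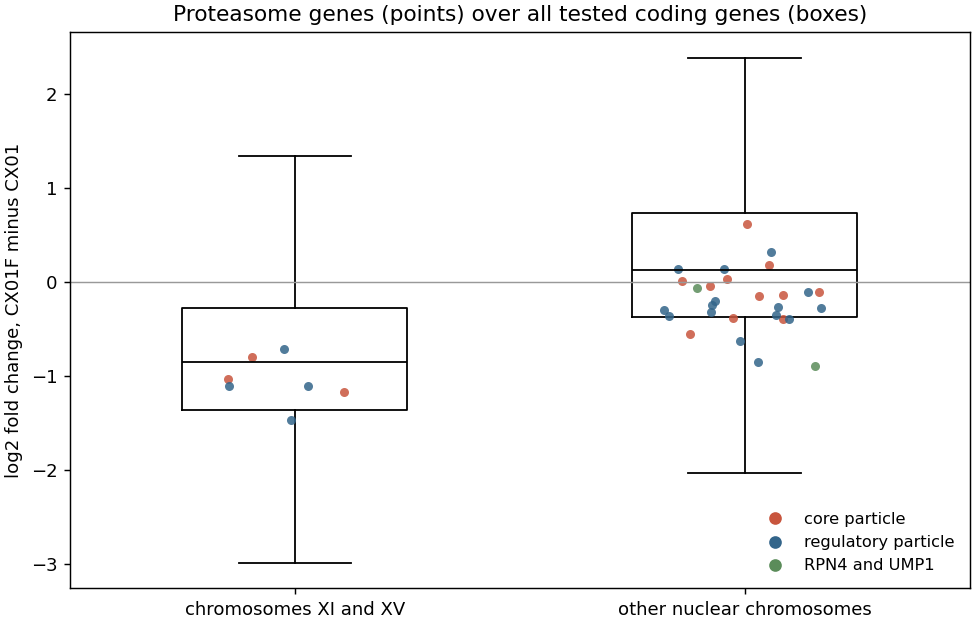
Log2 fold change, CX01F minus CX01, of proteasome genes (points) over all tested coding genes (boxes, with median, quartiles and whiskers to 1.5 times the interquartile range), on chromosomes XI and XV and on the other nuclear chromosomes. The median is -0.85 for the left box and 0.12 for the right one, and most points on the right lie below the median of their box.

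Change and promoter element can be set side by side. Of the 27 genes with the exact element, 19 were lower, 5 higher and 3 not called, with a median log2 change of -0.27. Over all tested genes 45.9% were called lower and 45.5% higher. The 6 subunit genes with a single-base difference were all lower, with a median of -0.70. Of these, the G1A genes were at -1.47 (RPN8), -1.18 (PUP1) and -0.55 (PRE5), and the A7G genes at -0.85 (SEM1), -0.33 (RPN13) and -0.11 (RPN10). RPN8 and PUP1 are on XV, so element and chromosome cannot be told apart for them. Of the genes with the exact element, RPT1 is on XI, and RPT4, RPT5, PRE6 and PRE10 are on XV. The part of the element in these changes was not tested.

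Genes that act before and around the proteasome were described from lists, which were chosen with earlier results of these data known. Their counts stand beside 45.9% of all tested genes called lower and 45.5% called higher. RAD6, UBR2, HUL5 and UBP6 stand in more than a single list and are counted in each. Of 9 other assembly chaperones, 6 were lower and 3 higher, with a median of -0.19 (1 higher with library size only). ADD66, a chaperone of alpha ring assembly, on XI, changed most, at 52.4 ± 1.37 CPM in CX01F against 98.3 ± 2.81 CPM in CX01 (log2 -0.91). Of 6 factors that associate with the proteasome, 5 were lower and 1 higher (median -0.11), led by FUB1, with 56.3 ± 1.59 CPM in CX01F against 102.4 ± 4.745 CPM in CX01 (log2 -0.86). Without CX01F replicate 1, 3 of the 6 were called lower. Among 7 genes that control Rpn4, 6 were lower and 1 higher (median -0.38). The higher one, RAD6 (log2 0.13), was no longer called higher with library size only or under either setting that set XI and XV aside. MUB1, which works with the ligase Ubr2 in degrading Rpn4, was 2.07-fold lower (log2 -1.05), while UBR2 was at -0.18. Of the activators reported to act on the RPN4 promoter, YAP1 was at -0.95, HSF1 at -0.76, PDR1 at -0.38 and PDR3 at -0.33.

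Ubiquitin genes divided. UBI4, the stress-induced polyubiquitin gene, had 1437 ± 30.3 CPM in CX01F against 1589 ± 28.1 CPM in CX01 (log2 -0.15), and UBA1, the ubiquitin-activating enzyme, on XI, was at -0.90. The genes that encode ubiquitin fused to a ribosomal protein were higher, RPL40A at 2.17, RPS31 at 1.90 and RPL40B at 0.80. RPL40A and RPL40B encode the same protein, so reads may have been split between them. Of 11 ubiquitin-conjugating enzymes, 6 were higher and 5 lower, near the shares over all tested genes, with UBC11, on XV, at -2.08 and UBC4 at 1.41. UBC4 has a close copy in UBC5, at 0.34.

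Of 15 ubiquitin ligases, 14 were lower and 1 higher (median -0.38), led by HRD1, the ligase of endoplasmic reticulum degradation, on XV, at log2 -1.29. Of 19 deubiquitinases, 10 were higher and 7 lower (median 0.10), again near the shares over all tested genes, and UBP10 rose most, by 1.30. UBP6, which sits on the proteasome, was at 0.15, and DOA4, which recycles ubiquitin at the endosome, at -1.03. The shuttle receptors and Cdc48 complex had 6 higher and 9 lower of 15 (median -0.13). UBX6, a Cdc48 cofactor, changed most (log2 -2.03), while CDC48 itself had 1330.0 ± 12.8 CPM in CX01F against 1267 ± 8.40 CPM in CX01 (log2 0.07). The number of rises in these lists moved with the scaling. With library size only, 6 deubiquitinases were higher and 11 lower, 2 genes of the shuttle and Cdc48 list and 2 ubiquitin-conjugating enzymes were higher, and no proteasome-associated factor, UBP6 included, and no ubiquitin ligase was called higher.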

How the data were processed

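The authors deposited whole-number read counts per gene for 6 libraries, not normalized. Per the submitters' processing notes, TopHat2 2.0.12, Cufflinks, featureCounts and Subread 1.4.6 were used. Genome build, annotation, strand setting and treatment of multi-mapping reads are not given in the sources used here. No member overlaps another gene in RefSeq R64.

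One row without a gene name (0.00877% to 0.044% of counts) was left out. The filter was filterByExpr of edgeR 4.0.16 in R 4.3.3 (6129 of 6400 genes kept). Counts were scaled by TMM, and the strains were tested against each other with edgeR's quasi-likelihood model (strain only, two-sided, Benjamini-Hochberg over tested genes). An exact permutation test of 3 against 3 cannot go below 0.1. SE is the absolute log2 fold change over the root of F. Coding lengths, chromosomes and promoter windows are from RefSeq R64 (6083 genes and all 35 members matched by name). Replicates of a strain differed by more than sampling noise (chi-square per degree of freedom 2.40 to 19.0). Alternatives, with limma 3.58.1 and DESeq2 1.42.0 among them, are in the closing section. Every member is named; those with the largest and smallest change in each part of the proteasome have values per library. Other lists are given by counts and the called gene of largest change at 10 CPM or more, and further list genes were named after their values were seen. The members and lists were chosen with earlier results of these data known.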

Additional observations from a re-analysis of the deposited data

How the results depend on the processing

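Only the scaling and the genes used moved the summary values. With library size only, all log2 changes shifted by a median of -0.21, and 2 members were higher and 32 lower (5 and 27 with TMM), 8 by at least 2-fold, with medians of -0.36 (core) and -0.53 (regulatory). Over all tested genes, 2221 were then higher and 3407 lower, against 2787 and 2816. Without the genes of chromosomes XI and XV (median shift -0.12), 28 members were left, 3 higher and 23 lower, 1 by at least 2-fold (RPN4), with medians of -0.22 and -0.40. With the scaling set by genes off these chromosomes, chosen once the data had been seen (shift -0.11), 3 were higher and 30 lower, 6 by at least 2-fold. The medians were then -0.26 and -0.44. Here 2470 genes were higher and 3138 lower. Signs turned for PRE7 (-0.027), RPN9 (-0.078), RPN7 (-0.068), SCL1 (-0.20) and PRE8 (-0.18) with library size only, for SCL1 (-0.11) and PRE8 (-0.093) without XI and XV and again (-0.11 and -0.090) with the scaling from other genes, and for SCL1 without CX01 replicate 1 (-0.020, where leaving out 1 library gave up to 0.031). Without XI and XV, and with the scaling from other genes, RPN7 and RPN9 were not called. Leaving out 1 library gave 5501 to 5617 called genes, 5 members higher and 26 or 27 lower, core medians of -0.17 to -0.13 and regulatory medians of -0.34 to -0.31. Size factors by ratio medians, no filter, DESeq2 and limma voom each gave 5 higher and 26 lower, UMP1 being the one lost. The replicate block gave 5 and 27, and 5619 genes in all. Same-numbered deviations correlated at -0.00975, 0.153 and 0.0205, so the numbers were not taken as pairs. Each alternative in the plan was run.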

Other observations

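Besides the proteasome genes, 45 genes of the table hold GGTGGCAAA in the 300 bases before their start codon. Of these, 8 share the match with a proteasome gene on the other side, and 37 have a match of their own. Among the 37, 25 were lower in CX01F, 8 higher and 4 not called, with a median log2 change of -0.26, and among all tested genes 45.9% were called lower. EPL1, a subunit of a histone acetyltransferase complex, fell by 1.94 on the log2 scale (160 ± 3.17 CPM in CX01F, 613 ± 15.8 CPM in CX01). BDF2, a bromodomain protein, fell by 1.69, and CEG1, an mRNA capping enzyme, rose by 0.85. SGT2, a cochaperone on chromosome XV, had 787 ± 11.1 CPM in CX01F against 1880 ± 42.0 CPM in CX01 (log2 -1.26). PDI1, the protein disulfide isomerase, was at -0.02 and not called. These genes were named after their values were seen.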
